A study of Homo sapiens with 8 samples.

Results

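Enhancers at 10 SOX genes were examined in 4 human medulloblastoma (MB) lines, among 27449 annotated genes in all. The genes were *SOX1*, *SOX2*, *SOX21*, *SOX4*, *SOX11*, *SOX5*, *SOX6*, *SOX8*, *SOX9* and *SOX10*. An enhancer was counted for a gene when it overlapped the gene body or lay within 50 kb of the start site of the gene in GRCh38, which gave 115 gene and region pairs over the 4 lines. H3K27Ac, a histone mark of active enhancers and promoters, was mapped by ChIP-seq in MB002, D425 and HD-MB03, which are labelled as Group 3 (G3-MB), and in UW228, which is labelled as SHH subtype and was used in the study as the non-G3 line. For every line there was 1 library of H3K27Ac and 1 of input, and no line was treated. MB002 and HD-MB03 were grown in a serum-free tumor stem medium with EGF, FGF-basic and LIF, whereas D425 and UW228 were grown in DMEM with serum, so D425 shared its medium with the non-G3 line. Subgroup and the identity of the single non-G3 line cannot be told apart.

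SOX proteins bind DNA through an HMG box, which recognizes short AT-rich motifs with the core AACAAT and bends the helix. The family is divided into subfamilies by sequence. SOXB1 proteins keep neural progenitors undifferentiated, the SOXB2 protein SOX21 opposes them, SOXC proteins act in the neurons that leave the cycle, SOXD proteins lack a transactivation domain and modulate other SOX proteins, and SOXE proteins act in glia, neural crest and cartilage. In the cerebellum, from which MB arises, members of all these subfamilies are used during the development of granule neurons and glia.

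The value given for an enhancer is its H3K27Ac signal minus its input signal, floored at 0. Both signals were deposited as a density (rpm/bp, scaled by the mapped reads of a library) multiplied by the length, so a long enhancer gains signal from its length. Enhancers of a line were ranked by this value, with rank 1 the strongest, and those above the cutoff of the ROSE algorithm were called super-enhancers (SEs) and the rest typical enhancers (TEs). The tables held 26072 enhancers in MB002, 15286 in HD-MB03, 26317 in D425 and 20875 in UW228, of which 363, 302, 431 and 753 were SEs. The sequencing depth is unknown from these values. There were no replicates, so differences between lines are given as values with no test, and 3 lines against 1 could not reach a permutation p below 0.25. Relative input density, the input per base pair over the median of the line, was between 0.231 and 1.62 over the summed regions of each SOX gene. Its median over the enhancers within 500 kb of a start site was highest in UW228, at 1.76 around *SOX2* and 1.59 around *SOX4*. The methods of the study describe the removal of regions within 2.5 kb of promoters, but the tables still held such regions. Of the enhancers made of a single peak, 6.91% in MB002, 8.59% in HD-MB03, 5.6% in D425 and 8.32% in UW228 lay within 2.5 kb of the annotated 5′ end of a gene. Enhancers that cover a start site, such as those of *SOX4* and *SOX11*, can therefore include promoter signal, and a gene without an enhancer may still carry H3K27Ac at its promoter. Markers of the lines were checked in the same way. Of 4 Group 3 genes, *OTX2*, *CRX* and *NRL* each had an enhancer in all 3 G3-MB lines and none in UW228, whereas *MYC* had one in all 4 lines, with a summed signal of 340820 in MB002 and 211230 in D425, both with a SE, 24370 in UW228 and 3638 in HD-MB03. Of 6 SHH genes, UW228 had an enhancer at 5, MB002 at 4, HD-MB03 at 4 and D425 at 2. SEs were found in HD-MB03 alone, at *GLI1* and *PTCH1*. UW228 had the lowest summed signal of the 4 lines at *GLI1*, 1432.5, and at *PTCH1*, 879. At *GLI2* and *HHIP* it lay below MB002 and HD-MB03 and above D425, which had no enhancer there. *SFRP1* had an enhancer in UW228 alone, with a signal of 7879, and *ATOH1* had none in any line. Of 7 mesenchymal genes, MB002 and UW228 had an enhancer at 7, D425 at 5 and HD-MB03 at 4, and SEs were found in UW228 alone, at *PRRX1*, *COL1A2* and *COL3A1*. Of 7 neural stem and glial genes between 3 and 5 had an enhancer in a line, with SEs at *VIM* in UW228 and *FABP7* in D425, and of 5 neural crest genes between 2 and 5 had one, with no SE. An enhancer was found at between 54.6% and 69.4% of all genes in a line. The enhancer signal of UW228 had a median of 1690 against 717 to 890 in the G3-MB lines.

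*SOX4* and *SOX6* were the SOX genes with a SE. MB002 had enhancers at 8 of the 10 genes, D425 at 5, HD-MB03 at 7 and UW228 at 7. Over all annotated genes, 67.7% had an enhancer by the same rule in MB002, 54.6% in HD-MB03, 69.4% in D425 and 59.3% in UW228, so the shares of the SOX genes lay on both sides of the background. A SE was assigned to *SOX6* in MB002, to *SOX4* in HD-MB03, to *SOX4* in D425 and to no SOX gene in UW228. The background was 3.21% of genes with a SE in MB002, 3.07% in HD-MB03, 4.20% in D425 and 5.30% in UW228. With 10 genes these shares amount to less than 1 gene in each line, and 1 or 0 genes were found. Of the genes whose body spans at least 500 kb, among them *SOX6*, 6.82% had a SE in MB002.

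**Figure D1:**
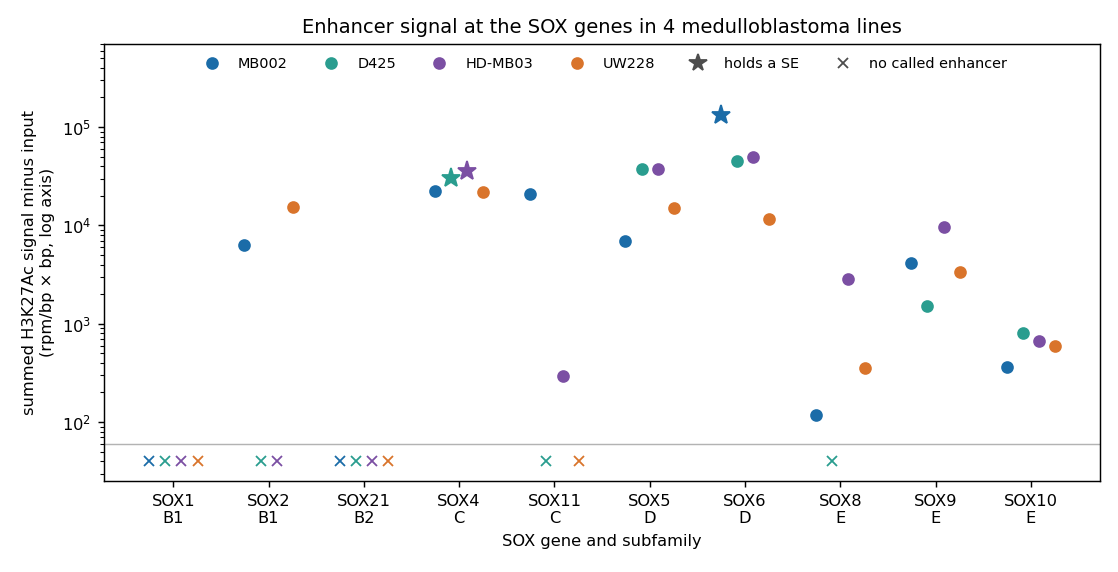
Summed H3K27Ac signal minus input of all enhancers of each SOX gene (vertical log axis, density times base pairs) in MB002, D425, HD-MB03 and UW228, with stars for genes that hold a SE and crosses below the line for genes with no called enhancer. *SOX4* lies between 22091 and 36129 in all 4 lines, whereas *SOX1* and *SOX21* have no enhancer in any line.

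The following sequences show the regions on which the description of *SOX4*, *SOX2* and *SOX6* turns, together with the RefSeq promoter at the representative *SOX6* start. They were read from GRCh38, each on the strand of its gene from 5′ to 3′, with matches to the SOX core AACAAT or its reverse complement ATTGTT in capitals. The first is the *SOX4* promoter, chr6:21593501-21593800 on the plus strand, which lay inside an enhancer in all 4 lines. The second is the middle of the stretch that the *SOX2* enhancers of MB002 and UW228 share, chr3:181717321-181717620 on the plus strand. The third is the middle of the intronic *SOX6* stretch that all 3 G3-MB lines share, chr11:16608905-16609204 on the minus strand. The fourth is the whole stretch that single peaks of the 3 G3-MB lines share just upstream of the representative *SOX6* start, chr11:16357045-16357227 on the minus strand, and the last is the RefSeq promoter of that start, chr11:16356497-16356796 on the minus strand.
*SOX4* promoter: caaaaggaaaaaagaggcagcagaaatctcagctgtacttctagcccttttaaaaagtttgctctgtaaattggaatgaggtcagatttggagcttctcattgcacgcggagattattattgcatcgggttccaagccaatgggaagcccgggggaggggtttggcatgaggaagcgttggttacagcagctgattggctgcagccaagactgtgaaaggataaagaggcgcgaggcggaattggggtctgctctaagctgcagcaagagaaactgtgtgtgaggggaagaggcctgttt
*SOX2* downstream enhancer: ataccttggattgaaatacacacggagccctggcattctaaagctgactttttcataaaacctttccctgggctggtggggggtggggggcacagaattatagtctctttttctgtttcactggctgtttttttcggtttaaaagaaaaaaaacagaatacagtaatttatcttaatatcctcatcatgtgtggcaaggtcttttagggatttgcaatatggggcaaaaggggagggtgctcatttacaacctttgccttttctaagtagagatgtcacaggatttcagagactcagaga
*SOX6* intronic enhancer: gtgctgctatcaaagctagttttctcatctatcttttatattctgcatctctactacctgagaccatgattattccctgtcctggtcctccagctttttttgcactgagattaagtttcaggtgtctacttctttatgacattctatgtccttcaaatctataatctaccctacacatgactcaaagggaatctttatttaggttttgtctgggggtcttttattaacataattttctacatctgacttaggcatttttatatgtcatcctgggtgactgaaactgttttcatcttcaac
*SOX6* upstream of the representative start: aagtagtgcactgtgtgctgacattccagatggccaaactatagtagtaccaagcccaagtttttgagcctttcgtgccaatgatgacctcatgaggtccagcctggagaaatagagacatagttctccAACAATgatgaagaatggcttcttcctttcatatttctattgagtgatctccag
*SOX6* promoter of the representative start: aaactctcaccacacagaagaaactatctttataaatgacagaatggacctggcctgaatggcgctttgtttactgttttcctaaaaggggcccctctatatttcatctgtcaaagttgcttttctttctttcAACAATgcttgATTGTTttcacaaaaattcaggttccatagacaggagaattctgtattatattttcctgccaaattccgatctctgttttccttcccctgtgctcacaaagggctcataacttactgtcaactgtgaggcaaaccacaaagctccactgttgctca

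The SOX core had 0 matches in the *SOX4*, *SOX2* and intronic *SOX6* windows. It had 1 match in the stretch upstream of the representative *SOX6* start and 2 in the promoter beside it, where the 2 matches face each other on opposite strands. Of 35116 RefSeq promoters of 300 bases, 10.1% held a match on either strand. Of 10 RefSeq promoters of *SOX1*, *SOX2*, *SOX21*, *SOX4*, *SOX5* and *SOX6*, 4 held one, and 3 of these 4 belonged to *SOX6*. The middle 300 bases of an enhancer held a match in 17.0% of enhancers of MB002, 16.8% of D425, 13.4% of HD-MB03 and 20.7% of UW228. Over their whole length, the SOX regions held 1.09 matches per kb in MB002 against 0.687 in all enhancers, 0.972 against 0.499 in HD-MB03, 1.1 against 0.649 in D425 and 0.899 against 0.758 in UW228. The SOX regions were also poorer in G and C, with 39.8% in MB002, 39.6% in HD-MB03, 37.5% in D425 and 41.0% in UW228 against 43.9%, 48.5%, 45% and 42.6% over all enhancers, and the part of base composition in the number of matches was not tested. A match describes the letters of a window and not a bound site.

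In the SOXB1 subfamily, *SOX2*, a factor that maintains neural stem cells, had an enhancer in UW228 and MB002 and none in D425 and HD-MB03. UW228 had 1 enhancer of 7096 bp with a signal of 15486 and rank 1534, which began inside the single exon of the gene and ended 8.46 kb downstream of the start site. MB002 had 3 enhancers with a summed signal of 6379. The strongest of them was 13110 bp long, lay from 2.63 to 15.7 kb downstream of the start site and had a signal of 5228 and rank 4173. The UW228 and MB002 enhancers shared 5824 bp, so the same flank of the gene was marked in both lines, but at 2.18 signal units per bp in UW228 and 0.399 in MB002. Peaks covered 93.6% of the UW228 enhancer and 31.1% of the MB002 enhancer. All *SOX2* regions lay inside the long noncoding gene *SOX2-OT*, in whose intron *SOX2* sits, and *SOX2* had the closest start site. D425 and HD-MB03 were low well beyond the window, with 1 enhancer each within 500 kb of the *SOX2* start site, of signal 152 and 628. *SOX2* had lower summed signal in each G3-MB line than in UW228, with no called enhancer counted as 0, and was the only one of the 10 genes to do so. This is 1 of 8 SOX genes with an enhancer in any line, against 30% of 23678 such genes over the genome. The ratio of UW228 to MB002 was 2.43. Relative input over the *SOX2* regions was 1.62 in UW228 and 0.938 in MB002. Divided by the input density of each enhancer, the ratio was 1.36 and the UW228 rank 3129, and divided by the median input within 500 kb they were 1.4 and 3168.

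*SOX1*, the other SOXB1 gene examined, had no enhancer in any line, and none lay within 500 kb of its start site in any line. *SOX21*, the SOXB2 gene that opposes SOXB1 proteins, also had no enhancer within its window. Its surroundings were not empty. Within 500 kb there were 16 enhancers in MB002, 3 in HD-MB03, 15 in D425 and 5 in UW228, among them SEs closest to *DCT* and *ABCC4* in D425 and to *GPC6-AS1* in UW228. At most 1 of these enhancers per line had *SOX21* as its closest start site.

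In the SOXC subfamily, *SOX4*, which acts in differentiating neurons and many tumors, was the SOX gene with the lowest mean best rank over the lines, 752. A single enhancer covered its start site and most of its single exon in every line. This enhancer had a signal of 22406 in MB002 at rank 691, 36129 in HD-MB03 at rank 128, 29516 in D425 at rank 349 and 13599 in UW228 at rank 1839. It was deposited as a SE in D425 and HD-MB03 and as a TE in MB002 and UW228. The D425 call was lost at rank 446 without input subtraction, at 692 after division by own input and at 507 after division by the input within 500 kb. It also rests, as does that of HD-MB03, on an enhancer that covers the start site. Relative to the start site it ran from -6.92 to 4.34 kb in MB002, from -7.07 to 4.33 kb in HD-MB03, from -6.91 to 3.21 kb in D425 and from -5.84 to 7.88 kb in UW228, so the upstream borders of the G3-MB lines nearly coincided. Its length was between 10123 and 13720 bp. The SEs of HD-MB03 had a median length of 30422 bp and those of D425 of 48085 bp, and 23.5% and 3.02% of them were no longer than the *SOX4* enhancer. Its signal per bp was 1.99 in MB002, 3.17 in HD-MB03, 2.92 in D425 and 0.991 in UW228. The median over all enhancers was between 0.509 and 0.650 per bp. Per base pair, the 3 G3-MB lines were therefore each at least 2 times as high as UW228 at this enhancer, before any division by input. Relative input over it was 0.833 in MB002, 0.967 in HD-MB03, 1.57 in D425 and 1.03 in UW228.

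The order of the lines at *SOX4* depended on what was summed. UW228 had 2 further enhancers, 22.2 and 41.5 kb downstream of the start site, with signals of 2876 and 5616, and D425 had 1 further enhancer 41.0 kb downstream, with a signal of 1146. The one near 41 kb had *CASC15* as the closest start site, a long noncoding gene downstream of *SOX4*. With all of them, the summed signal was 22406 in MB002, 36129 in HD-MB03, 30662 in D425 and 22091 in UW228. MB002 exceeded UW228 by a ratio of only 1.01, D425 by 1.39 and HD-MB03 by 1.64. Without input subtraction MB002 was below UW228 at 0.935, after division by own input D425 was below it at 0.954, and after division by the input within 500 kb the ratios were 1.72, 1.79 and 2.81 in MB002, D425 and HD-MB03. Within 500 kb, UW228 had the most signal, 183094 against 49431 to 101356 in the G3-MB lines, with its strongest SE 401 kb downstream and closest to *NBAT1*. No other SE within 500 kb was found in the G3-MB lines. Of all genes, 2.34% in HD-MB03, 5.44% in D425, 8.97% in MB002 and 9.06% in UW228 had a summed signal at least as high as that of *SOX4*.

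The protein-coding genes most like *SOX4* in their summed signal over the 4 lines, and sharing no enhancer with it, were *S100A16*, *S100A14* and *SAMD4A*, at Euclidean distances of 0.47, 0.47 and 0.48 on the log2(signal + 1) scale. *S100A16* and *S100A14* had the same values, 18764, 29800, 32376 and 28288 in MB002, D425, HD-MB03 and UW228. *SAMD4A* had 23763, 24697, 43570 and 25723. The likeness rests on 4 points, each from 1 library, among 19220 candidate genes.

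*SOX11*, the second SOXC gene, which is transiently expressed in newborn neurons, was marked almost only in MB002. There 3 enhancers summed to 20647. The strongest, of 8419 bp, ran from -2.47 to 5.95 kb relative to the start site, with a signal of 15902, rank 1158 and 1.89 signal units per bp, and a second lay 35.7 kb downstream with a signal of 4610. HD-MB03 had 1 enhancer of 622 bp in the exon with a signal of 294, and D425 and UW228 had none. UW228 had no enhancer within 1000 kb of *SOX11*, and D425 had 3 within 500 kb, of which the strongest ranked 4337. The noncoding gene *LINC01248* overlapped 2 of the MB002 regions.

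**Figure D2:**
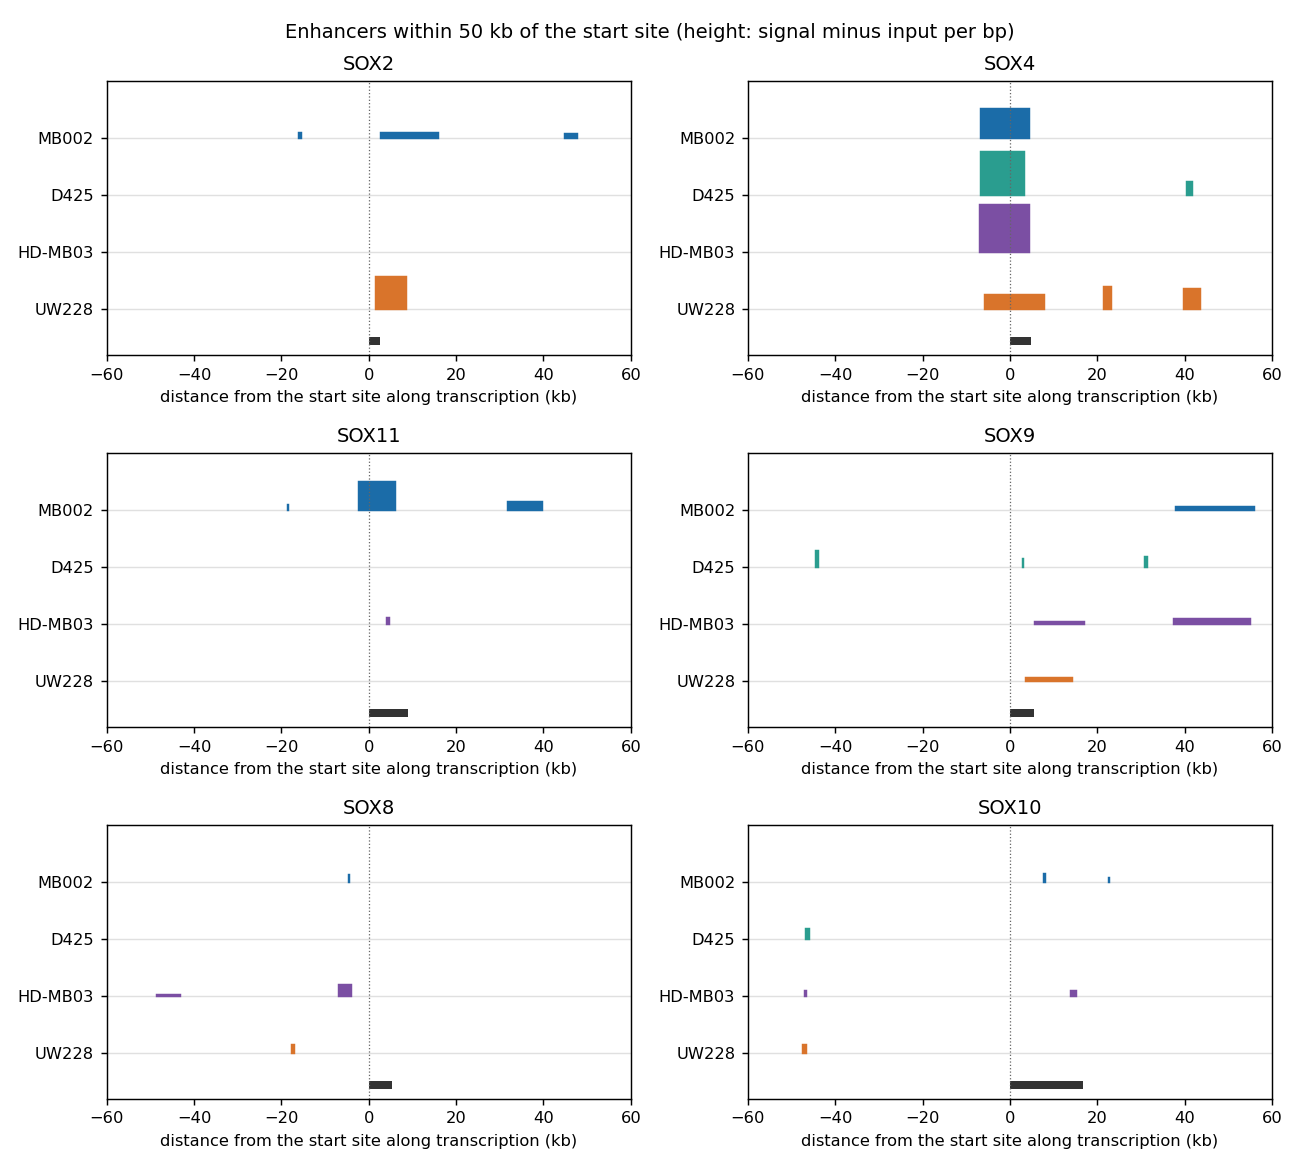
Enhancers within 50 kb of the start sites of *SOX2*, *SOX4*, *SOX11*, *SOX9*, *SOX8* and *SOX10* by distance along transcription (horizontal axis, kb), 1 row per line. The height of a bar is the signal minus input per bp on 1 scale for all panels, up to 3.17 at *SOX4* in HD-MB03, bars narrower than 0.3 kb are widened to be seen, and the black bar is the gene body. The *SOX4* bars overlie the start site in all 4 rows, and the *SOX2* rows of D425 and HD-MB03 are empty.

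The SOXD genes *SOX5* and *SOX6* span 1033041 and 773143 bp, and both guide neuronal subtype choice and cartilage formation with SOXE proteins. Long genes gather more enhancers by this rule, so they were set beside the 381 genes whose body spans at least 500 kb. *SOX6* had a summed signal of 134243 in MB002, 49563 in HD-MB03, 44687 in D425 and 11613 in UW228, from 14, 9, 15 and 4 enhancers. All 3 G3-MB lines lay above UW228, by ratios of 11.6 in MB002, 4.27 in HD-MB03 and 3.85 in D425. Divided by own input, the ratios were 5.37, 1.8 and 1.26, and divided by the input within 500 kb they were 9.69, 3.25 and 2.42. Division by own input raised the UW228 sum from 11613 to 26327. That rise came largely from 1 region of 1004 bp at rank 14303, whose signal of 700 was divided by a relative input of 0.0506. Per base pair the order differed, with 0.795 signal units per bp in MB002, 0.566 in HD-MB03 and 0.367 in D425 against 0.754 in UW228, so that HD-MB03 and D425 were below UW228 on this measure. Among the 381 long genes, 1.84% in MB002, 3.41% in HD-MB03, 7.61% in D425 and 40.4% in UW228 had a summed signal at least as high as *SOX6*. Among all genes in MB002 the share was 0.186%.

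MB002 had 2 SEs at *SOX6*. The first covered 75.9 kb near the 3′ end of the gene, from 17 stitched peaks, with a signal of 50678 and rank 145, and the other 3 lines had weaker TEs in the same stretch, with summed signals of 5654 in HD-MB03, 8607 in D425 and 2973 in UW228. The strongest *SOX6* enhancer of UW228, with a signal of 7779 and rank 3605, lay just past this stretch at the 3′ end. The second was intronic, 129 kb downstream of the annotated 5′ end, with a signal of 33775, rank 340 and 1.95 signal units per bp over 17.3 kb. D425 and HD-MB03 had enhancers in that intron at the same place, with signals of 14018 at rank 1177 and 22809 at rank 309, and UW228 had none. The HD-MB03 enhancer missed the SE call by 7 ranks. Ranked per bp, the best *SOX6* enhancer of MB002 was at 721 and no longer a SE, and both SEs had another gene as the closest start site, *MIR6073* for the first and *C11orf58* for the second. The middle of the shared 10398 bp is the intronic *SOX6* sequence shown above.

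Other annotated start sites bear on the naming of that intronic enhancer. The representative (MANE Select) *SOX6* transcript starts 383 kb inside the gene, so that the enhancer lies 255 kb upstream of it in MB002 and 253 kb in D425. In GENCODE 44 the enhancer holds the start sites of 2 *SOX6* transcripts without a defined coding sequence and the annotated 5′ end of *C11orf58*, a neighboring gene on the opposite strand, whose start was closer to its centre than that of *SOX6*. A further shared stretch of *SOX6* lay just upstream of the representative start. There each line had a single peak, of 216 bp in MB002, 1845 bp in HD-MB03, 454 bp in D425 and 338 bp in UW228, with signals of 109, 1309, 278 and 160 and ranks between 6128 and 24266. The UW228 peak overlapped the promoter of the representative start shown above, and the 3 G3-MB peaks shared the 183 bp beside it. A further intronic enhancer 442 kb downstream of the annotated 5′ end was found in the 3 G3-MB lines, with signals of 19230 in MB002, 9314 in HD-MB03 and 9570 in D425, and not in UW228.

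*SOX5* had the highest number of regions of the SOX genes in D425 and little concentration of signal. The summed signal was 6913 in MB002 from 10 enhancers, 37676 in HD-MB03 from 6, 37799 in D425 from 18 and 15157 in UW228 from 7. D425 and HD-MB03 were above UW228 by a ratio of 2.49 each, and MB002 was below it at 0.456, so the G3-MB lines lay on both sides of UW228. Among the 381 long genes, the share with a summed signal at least as high as *SOX5* was 58.5% in MB002 and 38.1% in UW228. In HD-MB03 and D425 the share was 5.25% and 9.45%. The similar sums of D425 and HD-MB03 came from unlike enhancers. In D425 the signal was spread thinly, with 0.306 per bp over 123689 bp and no rank below 3302. In HD-MB03 it was 1.17 per bp over 32183 bp, and 1 enhancer of 16110 bp with a signal of 15047 and rank 698 held the start of the representative *SOX5* transcript. A further HD-MB03 enhancer near the 3′ end of the gene had a signal of 12630 and rank 904. The strongest UW228 enhancer, with a signal of 10693 and rank 2555, lay 363 kb downstream of the annotated 5′ end. None of the 7 UW228 regions at *SOX5* overlapped a region of a G3-MB line.

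**Figure D3:**
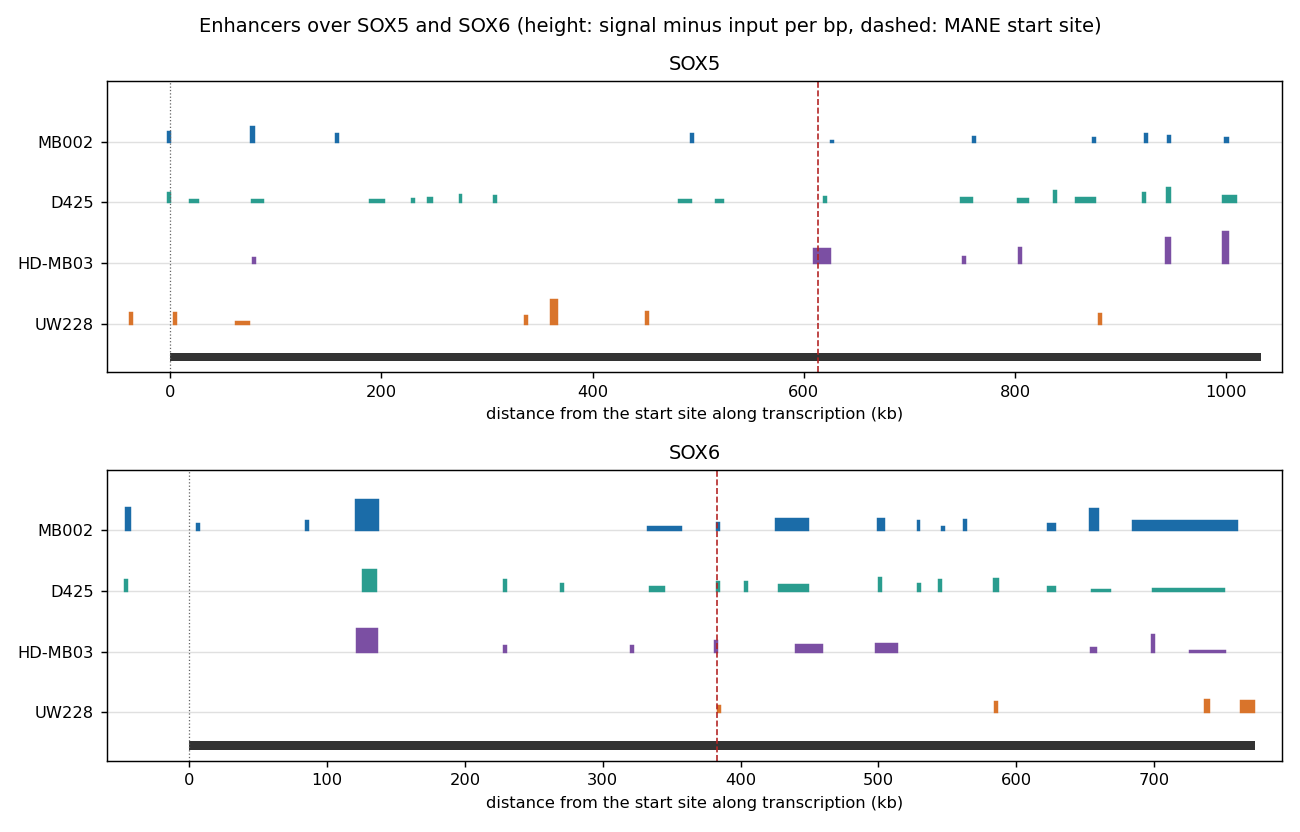
Enhancers over *SOX5* and *SOX6* by distance from the annotated 5′ end along transcription (horizontal axis, kb), 1 row per line, with the start of the representative transcript as a dashed line. Bar height is the signal minus input per bp on the scale of the plot of the short genes, and the narrowest bars are widened to be seen. At *SOX6* the tall bars 129 kb from the 5′ end are present in the 3 G3-MB rows and absent from the UW228 row, and at *SOX5* the HD-MB03 bar at the dashed line is the largest by signal, 15047.

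In the SOXE subfamily, *SOX9*, a factor of glial progenitors and cartilage, had TEs in all 4 lines. The summed signal was 4144 in MB002, 9557 in HD-MB03, 1499 in D425 and 3387 in UW228, and the best ranks were 5030, 1758, 13249 and 7146. Signal per bp was low in the long regions, between 0.216 and 0.403, and peaks covered between 15.2% and 32.0% of their length. MB002 and HD-MB03 shared an enhancer of 18.1 and 17.6 kb centred 46.7 and 46.1 kb downstream, with signals of 4144 and 7082. HD-MB03 and UW228 shared a second one, with signals of 2475 and 3387, which began 5.47 kb after the start site and just past the gene end in HD-MB03 and at 3.35 kb, inside the gene, in UW228. D425 had 3 regions under 1 kb each. Farther out, UW228 had a SE of 44.3 kb with a signal of 35621 and rank 391, 286 kb downstream of the *SOX9* start site, whose closest start site was that of *LINC02003*. With the window of 50 kb this SE was not counted for *SOX9*. The order of the lines turned on the window. Within 25 kb MB002 had no enhancer and the sum was 2475 in HD-MB03, 237 in D425 and 3387 in UW228, and within 100 kb MB002 had 14506 and the other lines were as with 50 kb.

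*SOX8* and *SOX10*, which act with *SOX9* in glia and neural crest, were weakly marked within 50 kb. *SOX8* had a summed signal of 119 in MB002, 2849 in HD-MB03 and 355 in UW228 and no enhancer in D425. All *SOX8* regions lay upstream of the gene inside *LMF1*, the neighboring gene, and none had *SOX8* as the closest start site. *SOX10* had 362 in MB002, 674 in HD-MB03, 807 in D425 and 593 in UW228, with best ranks between 9461 and 18946. An upstream region centred between -47.1 and -46.5 kb of the *SOX10* start site was called in D425, HD-MB03 and UW228, and its closest start site was that of *PICK1*. All *SOX10* regions overlapped *POLR2F*, whose annotated body runs through *SOX10*. Between 42.2% and 58.8% of all genes, depending on the line, had a summed signal at least as high as that of *SOX10*. Farther out, the surroundings of *SOX10* were marked. With a window of 100 kb the sum was 541 in MB002, 18291 in HD-MB03, 9314 in D425 and 10781 in UW228, where the strongest enhancer of the last 3 was closest to *MICALL1*. Within 500 kb, D425 had 3 SEs, the best at rank 162 and closest to *CDC42EP1*, and HD-MB03 had 1, closest to *PLA2G6*. Around *SOX8* no SE was found within 500 kb in any line.

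**Figure D4:**
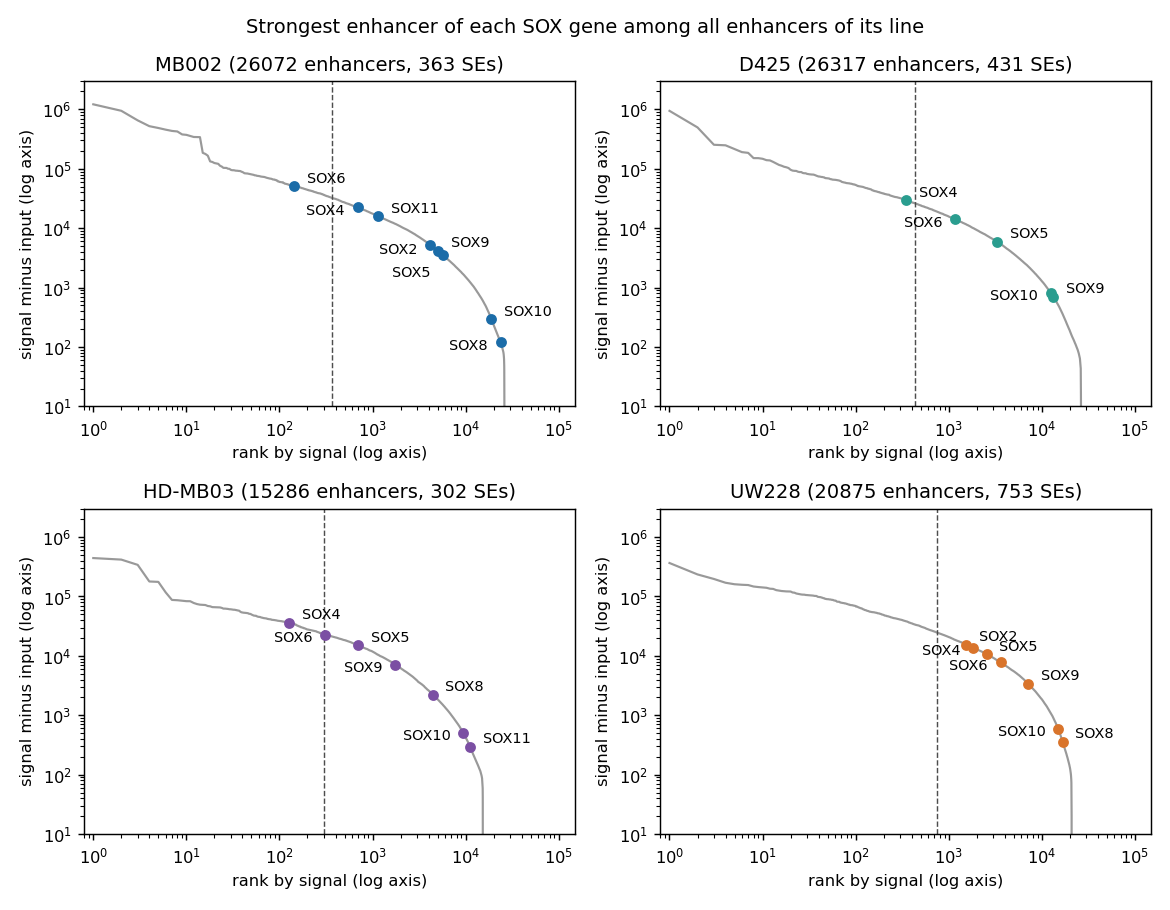
Signal minus input of every enhancer against its rank in each line (both axes log, grey curve), with the strongest enhancer of each SOX gene as a point and the last SE rank as a dashed line. *SOX6* in MB002 and *SOX4* in D425 and HD-MB03 lie left of the dashed line, *SOX6* in HD-MB03 lies beside it at rank 309, and every point of UW228 lies right of it.

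The subgroups of the study were compared by setting each G3-MB line beside UW228 over all SOX genes. Summed signal of *SOX4* and *SOX6* was higher in each of the 3 G3-MB lines than in UW228, which is 2 of 8 SOX genes with an enhancer in any line against 23.4% of 23678 genes. The share of SOX genes was therefore near the background. *SOX6* was higher by log2 ratios of 3.53 in MB002, 2.09 in HD-MB03 and 1.94 in D425, while *SOX4* was higher by 0.02, 0.71 and 0.47. Over genes with an enhancer in both lines, the median log2 ratio was -0.16 in MB002, -0.45 in HD-MB03 and -0.25 in D425, and the lower and upper quartiles ran from -2.21 to 1.88, from -2.64 to 1.5 and from -2.26 to 1.73. On these sums, uncorrected for input or gene length, *SOX6* lay above the quartiles in all 3 lines and *SOX4* inside them. Divided by own input, the *SOX6* ratios fell to the values given above, largely through the 1 UW228 region with a relative input of 0.0506. Quartiles over all genes were not computed on that scale. *SOX8* was below UW228 in MB002 at -1.58 and above it in HD-MB03 at 3.00, *SOX9* was below it in D425 at -1.18 and above it in MB002 and HD-MB03 at 0.29 and 1.5, and *SOX10* was below it in MB002 at -0.71 and above it in D425 and HD-MB03 at 0.44 and 0.18. When each line was scaled to its median enhancer signal, *SOX9* and *SOX10* were also higher in all 3 G3-MB lines. Input moved these genes too. Divided by own input, *SOX10* was below UW228 in all 3 G3-MB lines, at linear ratios of 0.137 in MB002, 0.185 in HD-MB03 and 0.503 in D425. The *SOX10* value of UW228 came from 1 weak region of 977 bp at rank 14952. Its low relative input of 0.231 took the signal from 593 to 2565 on division. Divided by the input within 500 kb, *SOX9* in MB002 was below UW228 at 0.868, *SOX10* in HD-MB03 at 0.689, and the linear ratio of *SOX8* went from 8.01 to 1.64 in HD-MB03 and from 0.336 to 0.0572 in MB002, with a median relative input around *SOX8* of 0.177 in UW228. The UW228 table was written to a differently named output folder, so a difference in settings between tables cannot be told apart from the line.

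**Figure D5:**
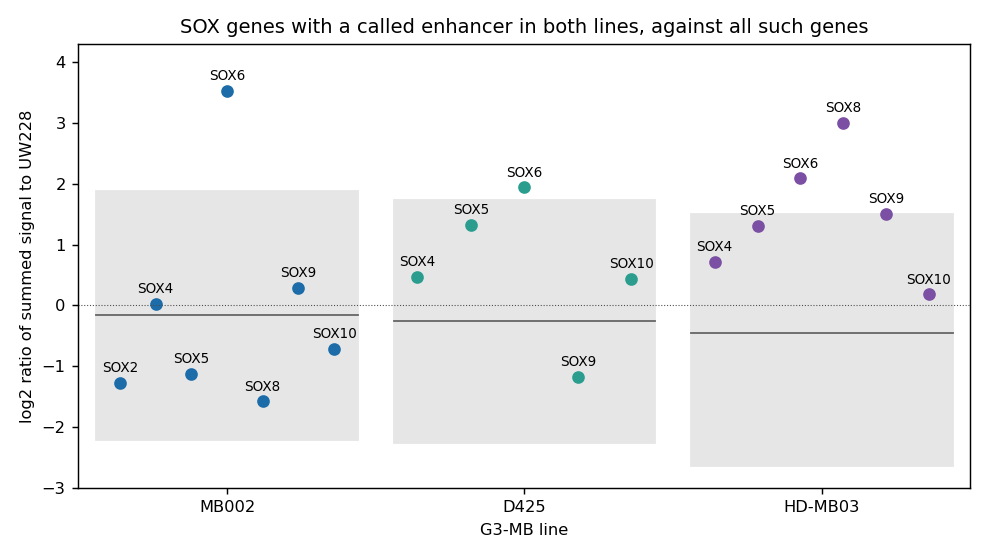
Log2 ratio of the summed signal of each SOX gene in a G3-MB line to that in UW228 (vertical axis), for genes with a called enhancer in both lines. The grey band runs from the lower to the upper quartile over all such genes of the line and the grey bar is their median, and *SOX6* lies above the band in all 3 lines, at 3.53 in MB002, 2.09 in HD-MB03 and 1.94 in D425.

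The regions of the SOX genes were also compared between lines by position. Merged where they overlapped, they formed 69 loci. Of these, 3 were called in all 4 lines, 1 at *SOX4* and 2 at *SOX6*, which is 4.35% against 5.30% of 54584 merged loci over the genome. A further 9 loci, or 13.0% against 6.60%, were called in all 3 G3-MB lines and not in UW228, and all 9 lay in *SOX5* or *SOX6*. UW228 alone had 10 loci, 7 of them in *SOX5*, which is 14.5% against 22.0% over the genome. Of the 18 UW228 loci, 44.4% overlapped a locus of a G3-MB line, against 40.1% of 20018 UW228 loci over the genome. Loci of 1 gene share that gene and are not independent.

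Of 9 further SOX genes, 3 had an enhancer in MB002 and in HD-MB03, and 7 had one in D425 and in UW228, against 67.7%, 54.6%, 69.4% and 59.3% of all genes in MB002, HD-MB03, D425 and UW228. Of the 8 with an enhancer in any line, *SOX12* was higher and *SOX3* and *SOX30* were lower in all 3 G3-MB lines than in UW228, against 23.4% higher and 30% lower over the genome. *SOX12*, the remaining SOXC gene, was the one with a SE, in D425 and HD-MB03, where 4.20% and 3.07% of all genes had one. Its summed signal was 45181 in MB002, 40642 in HD-MB03, 93934 in D425 and 15699 in UW228, with best ranks of 1538, 124, 29 and 1955. *SOX3*, the remaining SOXB1 gene, had an enhancer only in UW228, with a signal of 410. The SE calls of *SOX4* were in the same lines, and that in D425 depended on the treatment of input.

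Of 28 genes known as partners or targets of SOX proteins, 21 had an enhancer in MB002, 18 in HD-MB03, 18 in D425 and 16 in UW228, against 67.7%, 54.6%, 69.4% and 59.3% of all genes. A SE was found at 1 of them in HD-MB03, D425 and UW228 each and at 0 in MB002, against 3.07%, 4.20%, 5.30% and 3.21% of all genes. *NFIB*, a transcription factor of glial development, had 2 SEs in HD-MB03, with a summed signal of 93995 and best rank 59. *NFIX* had a SE in UW228 at rank 32 with a summed signal of 108570, and *MYRF*, a *SOX10* target in oligodendrocytes, had a SE in D425 at rank 341 with a summed signal of 30857. Of the 25 with an enhancer in any line, 9 were higher and 5 lower in all 3 G3-MB lines than in UW228, against 23.4% and 30% of 23678 genes. *NES*, the *SOX2* target that marks neural progenitors, was among the higher, and the *SOX10* target *MITF* was among the lower. *GFAP* had a summed signal of 18041 in HD-MB03 and 10312 in UW228 and no enhancer in MB002 and D425, and *OLIG1* had none in any line.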

How the data were processed

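A single H3K27Ac and a single input library per line were analysed for UW228 and the G3-MB lines. The authors aligned reads to GRCh38 with Bowtie2 2.3.0 and SAMtools 1.9, filtered them with sambamba, called peaks with MACS2 2.2.6 and stitched and ranked them with ROSE. The deposited signal of each enhancer is its density in rpm/bp, scaled by the mapped reads of a library, times its length. The deposited score is the ROSE rank, deposited counts give the peaks stitched, and a further deposited column gives the SE call. Input was subtracted from the H3K27Ac signal here. Sequencing depth is unknown, so no precision from counts can be given.

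Genes were the 27449 GENCODE 44 genes with a curated RefSeq transcript, and an enhancer counted for a gene when it overlapped the body or lay within 50 kb of the start site. A gene without an enhancer counted as 0. Values were computed with Python 3.11.15, numpy 2.4.6 and pandas 2.3.3 and drawn with matplotlib 3.10.9. The assignment and cutoff were tested on simulated data. The SOX genes and all gene lists were chosen with earlier results of these data known. Named were the 10 SOX genes, genes of 3 lists (other SOX genes, partners and targets, cell type markers) with a SE or a stated pattern, genes overlapping or closer to the regions, and the 3 genes most like SOX4. The examples named without a SE among partners, targets and SOX3 were chosen after their values were seen. Alternatives covered input, scaling, windows, assignment and SE cutoffs. Protein sequences were not used here.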

Additional observations from a re-analysis of the deposited data

How the results depend on the processing

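No paired analysis was possible because the labels carry no replicate numbers and no result comes from a test. Under 13 alternatives and 2 wider windows added after the data were seen, 114 of 150 counts of SOX genes, including those a setting cannot move, stayed within 1.5 times. Single-gene signals and ranks were compared without the wider windows, the SE cutoffs and the overlap of at least 50%. Of 390 such values, 324 stayed within 1.5 times. A gene that lost all its enhancers in a line was left out, so with the gene body only 19 of 27 summed signals remained. Of all 15 settings, 13 can move a summed signal. Relative to UW228, SOX2 was lower in each of the 3 G3-MB lines under 13 of them, SOX6 higher under 11 and SOX4 under 7. The SOX2 number is not comparable with the others. D425 and HD-MB03 counted as 0 at SOX2 except with 500 kb and 1000 kb, so elsewhere they could not exceed UW228. The number higher in all 3 G3-MB lines, 2 in the report, was 1 without input subtraction, after division by own input density, with a 100 kb window and without enhancers over the annotated 5′ end of a gene (SOX6), and per bp and with the closest start site only (SOX4), 4 after scaling to the median enhancer signal (SOX4, SOX6, SOX9, SOX10) and 4 with 1000 kb. The number lower, 1 in the report, was 2 after division by own input density (SOX2, SOX10), per bp (SOX2, SOX8), with 25 kb or the gene body only (SOX2, SOX9) and without enhancers over the annotated 5′ end of a gene (SOX2, SOX4), and 3 with 500 kb and 1000 kb. The SE at SOX4 in D425 was lost, leaving 0, without input subtraction, under both input divisions and without enhancers over the annotated 5′ end of a gene, and the last also left 0 in HD-MB03. The SE at SOX6 in MB002 was lost, leaving 0, per bp and with the closest start site only, and per bp UW228 had 1, at SOX2. With the 500 top-ranked enhancers as SEs, HD-MB03 had 2, SOX4 and SOX6. Genes with an enhancer were 5 in MB002 with the body only and 4 in HD-MB03 and in UW228 with the closest start site only. With 500 kb, D425 had enhancers at 9 genes and SEs at 4, HD-MB03 SEs at 2 and UW228 at 3. With 1000 kb, D425 had enhancers at 10 and SEs at 5, MB002 SEs at 3, HD-MB03 at 4 and UW228 at 3. Apart from settings whose construction removes regions, the cause was not tested. Without counts or replicates, small differences such as MB002 against UW228 at SOX4 cannot be told from error.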
